A study of Mus musculus with 18 samples.

Results

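The change in translation level between wild-type (WT) and Ddx6 knockout (Ddx6 KO) mouse embryonic stem cells (ESCs) was examined by gene function, with the trend on coding length taken out. Translation level is the abundance of an mRNA in the high polysome (4 or more ribosomes) over its abundance in the monosome. The change reported is the log2 translation level of KO minus that of WT. The table held 51467 genes, of which 12705 had at least 3 CPM (counts scaled to a common library size) in at least 3 of 18 libraries and were tested. Of these, 11766 were nuclear protein-coding genes with an annotated coding length and entered the length-adjusted test. Both genotypes were V6.5 ESCs in medium with serum, LIF and 2i (a pair of kinase inhibitors), treated briefly with cycloheximide to hold ribosomes in place and fractionated on sucrose gradients into monosome, low polysome and high polysome, with 3 gradients a genotype. KO gradient 1 came from KO clone 1 and KO gradients 2 and 3 from clone 2, each clone being a CRISPR-Cas9 line edited in Ddx6. Nothing in the sources says that the 3 gradients of a line were separate cultures, so p-values measure only the spread between these gradients, which may be technical.

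DDX6 is a DEAD-box RNA helicase that binds the decapping and deadenylation machinery and represses translation of the mRNAs it is recruited to. An mRNA moves from monosome to heavy polysomes as more ribosomes initiate on it, and a short coding sequence holds fewer ribosomes than a long one at the same spacing. mRNAs of the translation machinery often begin with a terminal oligopyrimidine (TOP) tract, a cytosine followed by a run of pyrimidines at the cap, through which growth signalling shifts them in or out of polysomes as a group.

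Total counts ranged from 2543617 to 11474550 per library, and the 3 WT monosome libraries were the shallowest. Ddx6 had 143, 156 and 160 CPM in the WT monosomes and 57.5, 26.7 and 17.6 CPM in the KO monosomes, and all KO libraries lay below all WT libraries. The residual level was highest in KO gradient 1, the gradient of clone 1. The 8 ESC markers examined were all present, with a summed level of 2710 to 2780 CPM in WT monosomes and 3370 to 4320 in KO monosomes, and of 4250 to 5530 CPM in WT high polysomes and 2890 to 3990 in KO high polysomes. The members did not share the lower high polysome sum. From WT to KO, mean high polysome levels fell for Dppa5a (2000 to 829 CPM), Tdgf1 (831 to 560), Sox2 (552 to 413) and Pou5f1 (38 to 34). They rose for Nanog (469 to 601), Klf4 (467 to 624), Zfp42 (197 to 236) and Esrrb (297 to 318). Of 24 markers of feeder fibroblasts, primitive endoderm, trophectoderm and primed epiblast or mesoderm, 8 were expressed enough to be tested, and Col3a1 and Fgf5 had no count in any library. The trophectoderm list summed to 23.2 to 24.1 CPM in WT high polysomes and 45.3 to 70.8 in KO high polysomes, the primitive endoderm list to 10.1 to 11.3 and 16.4 to 26, the feeder list to 6.54 to 7.45 and 5.65 to 6.76, and the primed list to 71.2 to 83.1 and 19.6 to 27.1. Of the trophectoderm markers tested, mean high polysome levels of Gata3 (17 to 37 CPM) and Krt7 (0.424 to 13.2) rose, while Eomes fell (5.66 to 3.95). In monosomes the WT and KO sums were 19.8 to 25.6 and 28.4 to 45.2 CPM for trophectoderm, 4.15 to 7.76 and 7.69 to 15.4 for primitive endoderm, 3.92 to 5.31 and 7.3 to 11.1 for feeders, and 57.8 to 75.8 and 13.4 to 19.4 for the primed list. Fewer cells of a type and less RNA per cell cannot be told apart in these bulk libraries, and the part of such cells in the results was not tested.

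To separate function from length, the change was first described by coding length alone. Before adjustment 1357 of 12705 genes (10.7%) were raised and 901 (7.09%) lowered (limma, adjusted p under 0.05). An unadjusted p under 0.05 was met by 2318 and 1861 genes. The local trend predicted a change of -0.55 at a coding length of 400 nt, -0.15 at 1000 nt, 0.13 at 1500 nt, 0.44 at 3000 nt and 0.63 at 6000 nt. Both fractions carried it: the trend of the KO change in the monosome fell from 0.23 at 400 nt to -0.25 at 6000 nt, and that in the high polysome rose from -0.31 to 0.38. With the trend subtracted from every library, 474 of 11766 genes (4.03%) were raised and 308 (2.62%) lowered in limma, with a median change of -0.00096 and a median standard error (SE) of 0.27. Of the raised genes that had a coding length, 378 were still raised and 930 no longer passed. Of the lowered genes 174 were still lowered and 714 no longer passed. A further 96 genes were raised and 134 lowered only after adjustment, and 0 changed direction. Spearman's rho between change and coding length was 0.543 before and -0.0016 after, as a description across genes of the same libraries.

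**Figure D1:**
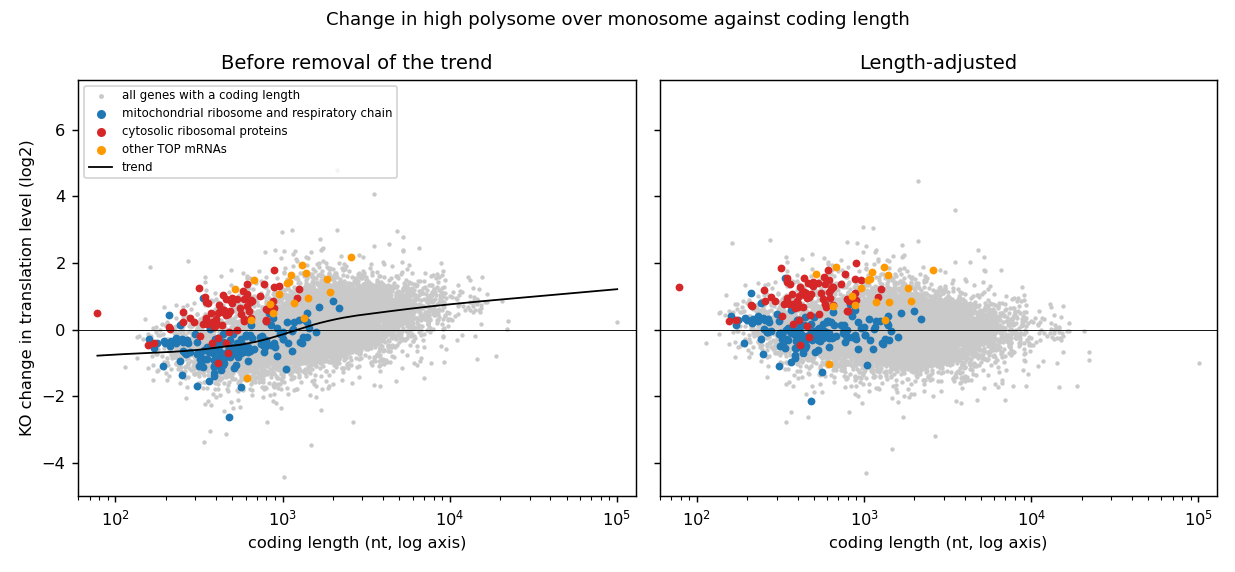
KO change in translation level (log2) against coding length (nt, log axis), before (left) and after (right) removal of the trend drawn as a black line; each point is a gene. Most cytosolic ribosomal protein genes (red; 74 of 76 have a positive adjusted change) and other TOP mRNAs (orange; 17 of 18) lie above the line, and mitochondrial ribosome and respiratory chain genes (blue) lie on both sides of it.

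Single gradients moved the length-adjusted counts. Leaving out KO gradient 3 left 111 raised and 41 lowered genes. The counts were 168 and 60 when WT gradient 2 was left out, 199 and 96 for WT gradient 1, 226 and 105 for KO gradient 2, and 235 and 155 for WT gradient 3. They increased to 762 and 574 when the clone 1 gradient (KO gradient 1) was left out. Of the 782 calls, 151 were kept without KO gradient 3 and 694 without KO gradient 1. The share of raised genes before adjustment was 60.1% with TMM scaling and 40.3% with library size alone, a setting under which the median over all genes was -0.10. After adjustment the share was 60.5% with library size alone. In a comparison of the clones chosen after seeing the data, 0 of 12705 genes differed in translation level (limma, adjusted p under 0.05) and 1241 had an unadjusted p under 0.05. The lone clone 1 gradient is assumed there to vary like the others, so these counts cannot show that the clones are alike.

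Genes that gained translation level beyond the trend started low in WT. Their median translation level was -0.64 in WT and 0.48 in KO, and that of the lowered genes was 0.44 in WT and -0.34 in KO. The same values chose the genes, so these medians are a description and no test. Of the 474 raised genes, 272 were lower in the KO monosome (2548 of all genes tested, 20.1%) and 37 were higher (18.6% of all). In the high polysome 251 were higher in KO (25.3% of all) and 51 lower (21.1% of all). Of the 308 lowered genes, 152 were higher in the KO monosome and 157 lower in the high polysome. The monosome and the high polysome make up the ratio, so these counts show which fraction moved and are not a separate test. The raised genes had a median coding length of 1390.5 nt, the lowered genes 1830 nt and all genes 1357.5 nt.

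**Figure D2:**
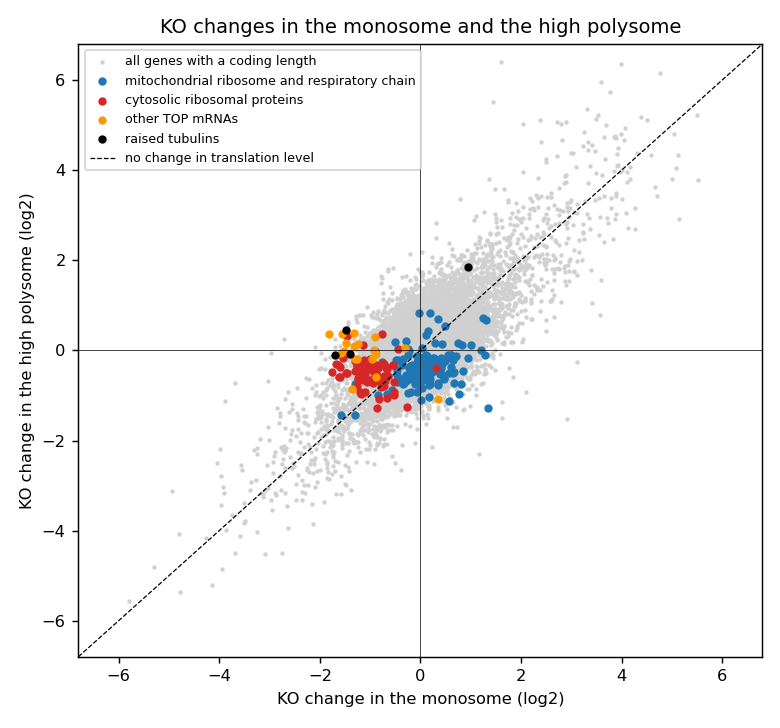
KO change in the high polysome (log2, vertical) against KO change in the monosome (log2, horizontal) for each gene with a coding length; on the dashed line translation level is the same in KO and WT, before length adjustment. Most ribosomal protein genes (red) and other TOP mRNAs (orange) lie left of zero and above the dashed line, as do 3 of the 4 raised tubulins (black), and mitochondrial genes are in blue.

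The translation machinery stood at the top of the 57 gene lists with a length-adjusted median. Of 45 large subunit ribosomal protein genes, 28 were raised beyond the trend and 0 lowered, with a median adjusted change of 1.07. Of 31 small subunit genes 16 were raised and 0 lowered, with a median of 0.88. Before adjustment these counts were 13 and 9, since their median coding lengths are 483 and 441 nt. Without KO gradient 3 the adjusted counts were 16 and 10. The median adjusted translation level of the large subunit list was -1.20, -1.22 and -1.09 in WT gradients 1 to 3, and -0.17, 0.05 and -0.07 in KO gradients 1 to 3, so every KO gradient lay above every WT gradient. Of the 45 large subunit genes 42 were lower in the KO monosome and 22 lower in the high polysome, with median changes of -1.10 and -0.47. These genes have many near-identical pseudogenes, and counting was restricted to unique alignments, so their levels are uncertain.

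Rpl13a, a large subunit protein, had 676, 687 and 656 CPM in WT monosomes and 239, 190 and 204 CPM in KO monosomes. In the high polysome it had 205, 208 and 197 CPM in WT and 150, 168 and 175 CPM in KO. The WT and KO gradients did not overlap in either fraction, and the fall in the monosome was the greater. Separation of the gradients was common among all genes and does not single out a gene. In translation level the gradients of 4961 of 12705 genes tested did not overlap, and after adjustment those of 3586 of 11766. The same was not counted for single fractions. The length-adjusted translation level of Rpl13a rose by 1.79 (SE 0.16, limma adjusted p = 2.48e-06). Rps19, a small subunit protein, had translation levels of -2.18, -1.98 and -2.22 in WT and -1.27, -0.87 and -1.15 in KO, an adjusted rise of 1.54 (SE 0.17, limma adjusted p = 2.79e-05). Rpsa, the laminin receptor and small subunit protein, rose by 1.5 (SE 0.24, limma adjusted p = 0.000989) after adjustment. Rpl36 rose by 1.85 (SE 0.34, limma adjusted p = 0.00318) after adjustment, although its gradients overlapped before adjustment, at -1.39 to -2.40 in WT and -0.09 to -1.40 in KO.

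Of 18 elongation factors and other TOP mRNAs, 13 were raised and 0 lowered after adjustment, with a median of 1.25, the highest of the lists, and 9 were raised without KO gradient 3. Eef1b2, a subunit of the nucleotide exchange factor of elongation factor 1, had 5172, 4954 and 4876 CPM in WT monosomes and 1836, 1610 and 1806 in KO monosomes. In the high polysome it had 1341, 1438 and 1388 CPM in WT and 1396, 1425 and 1289 in KO. The monosome levels were well apart and the high polysome levels overlapped. Its adjusted rise was 1.87 (SE 0.14, limma adjusted p = 1.26e-07). Eef1g, another subunit of that factor, rose by 1.88 (SE 0.21, limma adjusted p = 2.79e-05), from -2.04, -2.16 and -2.14 in WT to -0.57, -0.07 and 0.06 in KO. Tpt1, the translationally controlled tumour protein, rose by 1.68 (SE 0.33, limma adjusted p = 0.00456) from a mean of 4.03 CPM in the WT high polysome. Eef2, the translocase, and Eef1a1, which delivers aminoacyl-tRNA, rose by 1.77 (SE 0.26) and 1.62 (SE 0.25) after adjustment (limma adjusted p = 0.000382 and 0.00075). Both were singled out after their values were seen.

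Bases around the annotated starts of raised ribosomal protein and other TOP mRNAs are shown because the TOP tract is the feature that defines this class. The annotated starts were not checked against mapped mRNA ends, so a marked run need not be the TOP tract of the mRNA. Capitals among the first 5 letters lie before the annotated start, and the Eef1a1 run begins 5 bases before it. The sequences are RefSeq, GRCm38.p6, sense strand, from 5 bases before the annotated start to 25 bases from it, with capitals marking the pyrimidine run that begins with C.
Rpl13a: gacaagaCCTCCTCCTTTCCCaggcggctg
Eef1a1: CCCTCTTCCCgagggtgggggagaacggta
Eif3f: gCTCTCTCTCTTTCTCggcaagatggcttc
Rps10: cgCCCCTTCCTTTCCagcctccgcctcgga
Rplp2: tCTTCCTTTCgccgccggacgccgccgagg
Rps18: ccgCTCTCTCTTCCacaggaggcctacacg
Eef1b2: gttccgccggaagtagccgaggccttgcgt
Eef2: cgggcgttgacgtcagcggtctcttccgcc
The windows are chr7:45128721-45128750 (minus strand) for Rpl13a, chr9:78481700-78481729 (minus) for Eef1a1, chr7:108934410-108934439 (plus) for Eif3f, chr17:27635220-27635249 (minus) for Rps10, chr7:141447646-141447675 (plus) for Rplp2, chr17:33955641-33955670 (minus) for Rps18, chr1:63176826-63176855 (plus) for Eef1b2 and chr10:81176626-81176655 (plus) for Eef2. The first 6 hold a C followed by at least 5 pyrimidines that starts within 5 bases of the RefSeq start, and Eef1b2 and Eef2 hold none at that position. The genes were picked by this pattern from raised members of the ribosomal protein and TOP lists, 6 with it and then Eef1b2 and Eef2 without it. The split shown is therefore no result. On the sense strand this pattern occurs at 3229 of 27025 RefSeq gene starts (11.95%). Among tested genes with a start in the table it was held by 72 of 364 genes raised beyond the trend (19.8%), by 34 of 246 lowered (13.8%) and by 1232 of 9320 of all (13.2%). Outside the ribosomal protein and TOP lists, 1202 genes held it, of which 51 (4.24%) were raised and 34 (2.83%) lowered, close to the 4.03% and 2.62% of all genes. Within those lists 21 of 30 genes with the pattern were raised, and 18 of 38 without it. Of genes with a start in the table, the pattern was held by 5 of 12 in the TOP list. It was held by 14 of 33 large subunit and 11 of 23 small subunit genes.

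Other parts of the translation apparatus moved less uniformly. Of 42 initiation factors 9 were raised and 2 lowered after adjustment, with a median of 0.23, and 5 and 0 without KO gradient 3. Of the 9 raised, 6 were subunits of eIF3, the complex that joins the small ribosomal subunit to mRNA (Eif3f, Eif3g, Eif3h, Eif3i, Eif3k and Eif3l), of 12 eIF3 subunits tested, a subgroup noticed after the values were seen. Eif3f, Eif3h and Eif4b are also on the TOP list and were counted there. Eif3f had translation levels of -1.39, -1.44 and -1.58 in WT and -0.28, 0.06 and 0.07 in KO, an adjusted rise of 1.51 (SE 0.17, limma adjusted p = 2.79e-05). Eif3h rose by 1.5 (SE 0.28, limma adjusted p = 0.00283) after adjustment. The other 3 were Eif4b, Eif4g1 and Eif2b2, which with the smaller eIF3 subunits were singled out after their values were seen. Eif5a, the factor that relieves stalls at proline stretches, went the other way, from 1.52, 1.4 and 0.92 in WT to 0.25, 0.24 and -0.15 in KO, an adjusted change of -0.67 (SE 0.16, limma adjusted p = 0.0193). It lost the call without WT gradient 1 (adjusted p = 0.115), WT gradient 2 (0.126), KO gradient 2 (0.0581) or KO gradient 3 (0.112) in limma.

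Cytosolic aminoacyl-tRNA synthetases, which charge tRNAs with amino acids, gave 5 raised and 0 lowered of 20 after adjustment, with a median of 0.46 and 18 positive changes. Before adjustment 13 were raised, and without KO gradient 3 or WT gradient 2 the adjusted count was 2. Qars, glutaminyl-tRNA synthetase, had 351, 339 and 400 CPM in WT monosomes and 174, 139 and 165 in KO monosomes. In the high polysome it had 185, 154 and 197 CPM in WT and 255, 320 and 346 in KO. Neither fraction overlapped between genotypes, and the levels moved in opposite directions. The adjusted rise was 1.61 (SE 0.20, limma adjusted p = 7.36e-05). Among 51 ribosome biogenesis factors 5 were raised and 0 lowered, with a median of 0.33. The raised count was 12 without KO gradient 1 and 2 without any other gradient. Nop53, which acts in large subunit maturation, rose by 1.54 (SE 0.24, limma adjusted p = 0.000742), and Nol9, a polynucleotide kinase of pre-rRNA processing, by 0.82 (SE 0.15, limma adjusted p = 0.00338). Polr1c, a subunit shared by RNA polymerases I and III, rose by 1.33 (SE 0.19, limma adjusted p = 0.00033) and was the 1 of 26 RNA polymerase subunits that was raised.

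**Figure D3:**
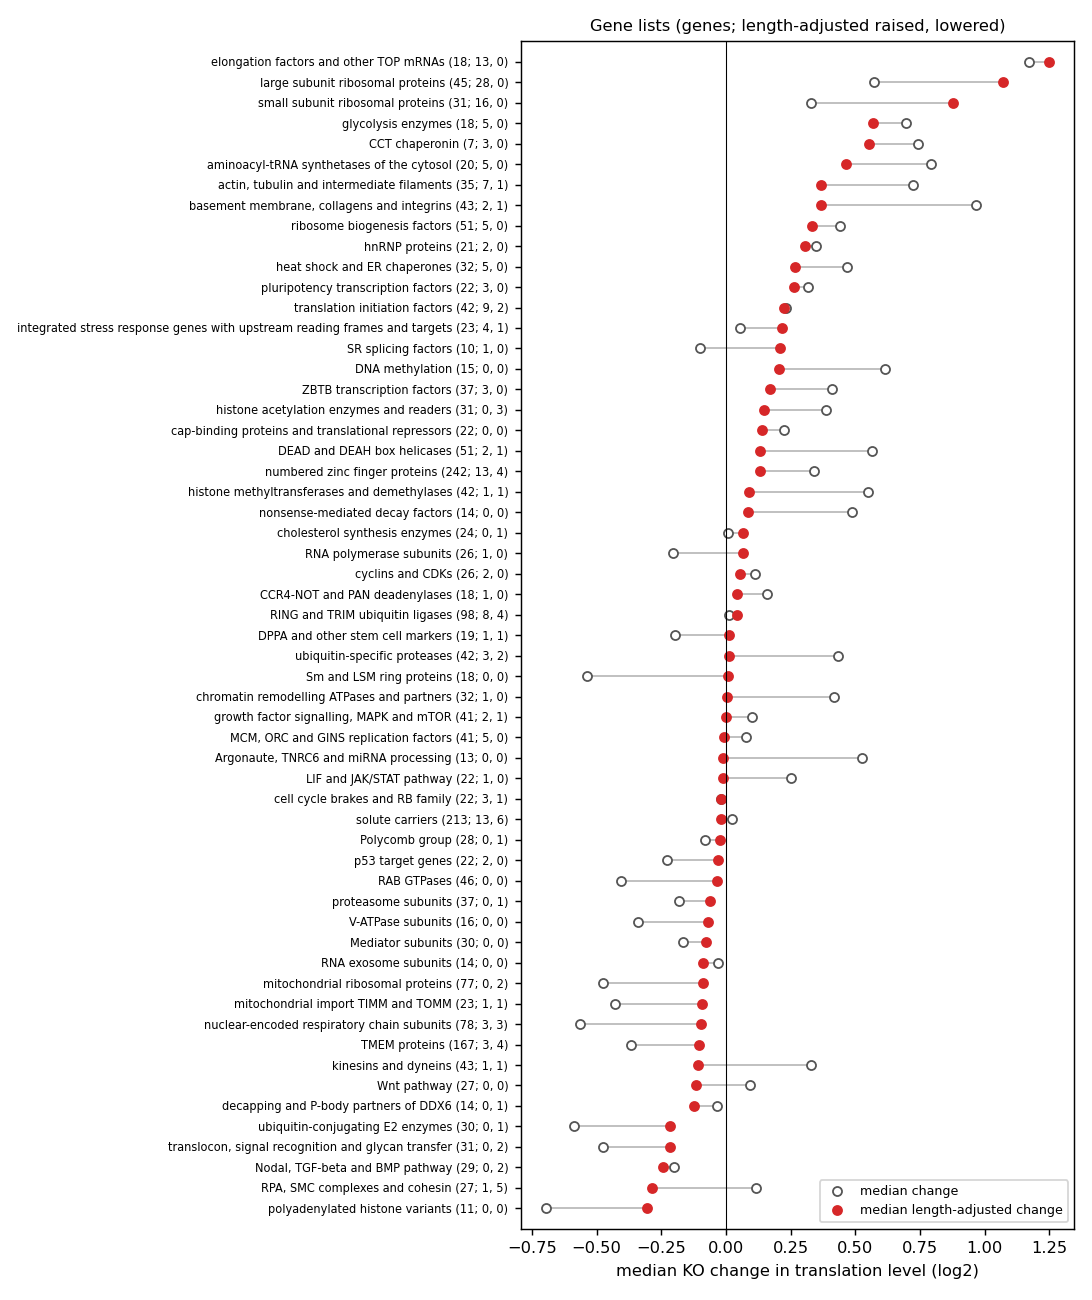
Median KO change in translation level (log2) of each gene list with 7 or more genes, before (open points) and after (filled points) removal of the coding length trend; brackets give the number of genes and the numbers raised and lowered after adjustment, and lists are ordered by the adjusted median. The ribosomal protein and TOP lists end between 0.88 and 1.25, whereas the mitochondrial ribosome and respiratory chain lists move from -0.48 and -0.56 to -0.09 and -0.10.

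Tubulins led the cytoskeletal list. Of 35 actin, tubulin and intermediate filament genes 7 were raised and 1 lowered after adjustment (4 and 0 without KO gradient 3), with a median of 0.37. Tubb5, the main beta-tubulin of dividing cells, had 2625, 2465 and 2737 CPM in WT monosomes and 1020, 831 and 948 in KO monosomes. In the high polysome it had 1705, 1265 and 1649 CPM in WT and 1646, 2067 and 2670 in KO, where one KO gradient fell inside the WT range. Its adjusted rise was 1.88 (SE 0.28, limma adjusted p = 0.000382). Tubb2b rose by 1.54 (SE 0.23, limma adjusted p = 0.000391) after adjustment, from translation levels of -0.41, 0.00 and -0.45 in WT to 1.35, 1.07 and 1.51 in KO. The alpha-tubulin Tuba1b and the beta-tubulin Tubb2a also rose, by 1.25 (SE 0.22) and 0.85 (SE 0.21) after adjustment (limma adjusted p = 0.00193 and 0.0218), and were singled out after their values were seen. Tubb5, Tubb2b and Tuba1b were lower in the KO monosome, by -1.49, -1.70 and -1.39, while Tubb2a was higher there, by 0.95, and higher still in the high polysome, by 1.86. The lowered member was Myl12a, a regulatory light chain of myosin, at -1.02 (SE 0.27, limma adjusted p = 0.0259). Myl12a was no longer called without KO gradient 3 (limma adjusted p = 0.184), WT gradient 1 (0.0946) or WT gradient 2 (0.0982).

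Among folding factors, of 7 subunits of the CCT chaperonin, which folds tubulin and actin, 3 were raised, 0 lowered and 7 positive after adjustment, with a median of 0.55, and 1 was raised without KO gradient 3. Cct2 went from -0.48, -0.16 and -0.17 in WT to 0.86, 1.01 and 0.76 in KO, an adjusted rise of 0.97 (SE 0.18, limma adjusted p = 0.00282). Of 32 heat shock and endoplasmic reticulum chaperones 5 were raised and 0 lowered (3 without KO gradient 3), with a median of 0.27. Hsp90ab1, the constitutive cytosolic HSP90, had translation levels of -1.16, -1.38 and -1.24 in WT and 0.25, 1.02 and 0.96 in KO. It rose by 1.67 (SE 0.23, limma adjusted p = 0.000144) after adjustment, and Hspa8, the constitutive HSC70, by 1.29 (SE 0.22, limma adjusted p = 0.00141). Hsp90ab1 fell from 6629 to 2462 CPM (means) in the monosome and rose from 2789 to 4153 CPM in the high polysome.

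In metabolism, glycolysis enzymes and glucose transporters gave 5 raised and 0 lowered of 18 after adjustment, with a median of 0.57, and 1 raised without KO gradient 3 or without WT gradient 2. Gpi1, glucose-6-phosphate isomerase, and Hk1, hexokinase 1, rose by 1.09 (SE 0.28) and 1.04 (SE 0.28) after adjustment (limma adjusted p = 0.0234 and 0.0277). Both lost the call without KO gradient 3, KO gradient 2, WT gradient 2 or WT gradient 3, and Hk1 also without WT gradient 1, with adjusted p up to 0.172 for Gpi1 and 0.166 for Hk1. The transporters Slc2a3 and Slc2a1 rose by 1.02 (SE 0.18) and 0.78 (SE 0.19, limma adjusted p = 0.00182 and 0.0218), were higher in KO in both fractions and were singled out after their values were seen.

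Across 213 solute carriers 13 were raised and 6 lowered after adjustment, with a median of -0.02, and 5 and 1 without KO gradient 3. The shares were 6.1% and 2.82%, beside 4.03% and 2.62% of all genes. The raised genes include Slc2a3 and Slc2a1, which are also counted in the glycolysis list. The sodium-coupled glutamine transporter Slc1a5 had 840, 872 and 843 CPM in WT monosomes and 444, 355 and 385 in KO monosomes. Its high polysome level was 429, 377 and 424 CPM in WT and 501, 626 and 672 in KO. Both fractions separated the genotypes, in opposite directions, and the adjusted rise was 1.46 (SE 0.18, limma adjusted p = 5.05e-05). The nucleoside transporter Slc29a2 rose by 1.41 (SE 0.29, limma adjusted p = 0.00592), but not past the threshold without KO gradient 3 (0.0619) or WT gradient 2 (0.0616) in limma.

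Among regulators of transcription, the largest rise was that of Zbtb7a (chromosome 10, 81135220 to 81152995, plus strand), a zinc finger repressor with a BTB domain. It had 183, 122 and 160 CPM in WT monosomes and 91.5 and 83 CPM in the monosomes of KO gradients 2 and 3, while KO gradient 1 lay just above the lowest WT level. The high polysome held 35, 34.9 and 30.4 CPM in WT and 105, 126 and 118 in KO, which did not. The adjusted rise was 2.22 (SE 0.22, limma adjusted p = 8.05e-06). Of 37 ZBTB genes 3 were raised and 0 lowered after adjustment, and of 242 numbered zinc finger genes 13 were raised (5.37%) and 4 lowered (1.65%), with medians of 0.17 and 0.13. Without KO gradient 3 the zinc finger counts were 1 and 0. Zfp773 rose by 2.06 (SE 0.34, limma adjusted p = 0.00129), with 61.3, 42 and 48.3 CPM in WT monosomes against 12.9, 10.9 and 10.9 in KO and from 2.12 to 3.89 CPM in the 6 high polysome libraries. It reached a mean of 10 CPM through the WT monosomes alone. The high polysome side of its ratio rests on few counts, so the size of its rise is uncertain.

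Of 22 pluripotency transcription factors 3 were raised and 0 lowered after adjustment, with a median of 0.27. Tbx3, a T-box factor of naive ESCs, had 257, 214 and 235 CPM in WT monosomes and 290, 254 and 274 in KO monosomes, which overlapped. Its high polysome level was 143, 170 and 152 CPM in WT and 463, 483 and 445 in KO, about 3 times the WT level. The adjusted rise was 1.04 (SE 0.15, limma adjusted p = 0.000378). Stat3, the effector of LIF signalling, rose by 0.90 (SE 0.17, limma adjusted p = 0.00388), and without KO gradient 3 the limma adjusted p was 0.0586. Tob2, an antiproliferative protein that recruits the CCR4-NOT deadenylase, was the 1 of 18 deadenylase genes called. It went from 0.06, -0.32 and -0.15 in WT to 1.04, 0.93 and 0.75 in KO, with an adjusted rise of 1.19 (SE 0.16, limma adjusted p = 0.000102). Of 41 replication factors 5 were raised and 0 lowered, with a median of -0.0069, and Gins3, a subunit of the replicative helicase complex, rose by 1.12 (SE 0.21, limma adjusted p = 0.00282). Cdc6, also raised, lost its call without any gradient except KO gradient 1 (limma adjusted p up to 0.219). The raised shares were 13.6% of pluripotency and 12.2% of replication factors, beside 4.03% of all genes. Under the alternatives in processing the raised counts ran from 1 to 5 and from 1 to 9.

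Genes that lost translation level were spread more thinly over functions. The list with the most lowered members for its size was that of RPA, SMC complexes and cohesin, with 5 lowered and 1 raised of 27 and a median of -0.29. The lowered share was 18.5%, beside 2.62% of all genes, in a list singled out from 57 for that share. Without KO gradient 3 or WT gradient 2, 1 was lowered and 0 raised. Rpa3, the small subunit of the single-strand DNA binding protein RPA, had 39.4, 36.2 and 24.4 CPM in WT monosomes and 152, 101 and 168 in KO monosomes. The high polysome held 53.3, 75 and 57.4 CPM in WT and 79.7, 34.4 and 12.4 in KO, where the KO gradients spanned the WT range. The adjusted change was -2.46 (SE 0.71, limma adjusted p = 0.0396), and without KO gradient 3 it was -1.66 (adjusted p = 0.226). Rpa3 was also not called without WT gradient 1, 2 or 3 (limma adjusted p = 0.0938, 0.159 and 0.128). Nsmce3, a subunit of the SMC5/6 complex, changed by -1.70 (SE 0.39, limma adjusted p = 0.0125), from 1.39, 1.71 and 1.38 in WT to 0.47, -0.42 and -1.36 in KO. Its call was lost without KO gradient 3 (-1.27, adjusted p = 0.112) or WT gradient 2 (-1.59, adjusted p = 0.0892) in limma. The other lowered members were Smc4, Smc6 and Ncaph2, singled out after their values were seen. Ncapd2, a condensin subunit, was the raised member, at 0.78 (limma adjusted p = 0.0379), and kept the call only without KO gradient 1 (up to 0.23 otherwise).

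Sin3b, the scaffold of a histone deacetylase complex, changed by -1.29 (SE 0.17, limma adjusted p = 9.54e-05) after adjustment and kept the call under all alternatives. It had 359, 418 and 378 CPM in WT monosomes against 596, 608 and 620 in KO, and 1501, 1264 and 1171 CPM in WT high polysomes against 1136, 1139 and 1245 in KO. The monosome levels were apart and the high polysome levels overlapped. Of 31 histone acetylation genes 0 were raised and 3 lowered beyond the trend, the other 2 being Brwd1 (singled out after its values were seen) and Kat2b, while 11 were raised and 1 lowered before adjustment. Kat2b, an acetyltransferase, was called only with all gradients or without KO gradient 1 (limma adjusted p up to 0.159 otherwise). Scap, the escort of the sterol-sensing transcription factor SREBP, changed by -1.06 (SE 0.19, limma adjusted p = 0.00272) and was the 1 of 24 cholesterol synthesis genes called.

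Among signalling genes the Nodal, TGF-beta and BMP list had a median of -0.24, with 2 lowered and 0 raised of 29. The lowered share was 6.9%, beside 2.62% of all genes. Bmpr1a, a type I BMP receptor, changed by -1.08 (SE 0.29, limma adjusted p = 0.0269). Its translation levels were 0.02, 0.61 and 0.01 in WT and 0.13, -1.11 and -1.06 in KO, so KO gradient 1 lay inside the WT range and both clone 2 gradients below it. Smurf2, a ubiquitin ligase of that pathway, changed by -0.77 (SE 0.20, limma adjusted p = 0.0271). Without KO gradient 3 the limma adjusted p was 0.189 for Bmpr1a and 0.135 for Smurf2, and only the fit without KO gradient 1 kept both calls. Among 31 genes of the translocon, signal recognition and glycan transfer 23 adjusted changes were negative, with a median of -0.22. After adjustment 0 were raised and 2 were lowered (6.45%, beside 2.62% of all genes). They were Spcs2, of the signal peptidase, at -1.20 (SE 0.32, limma adjusted p = 0.0289) and Ssr3, of the translocon-associated complex, at -0.86 (SE 0.24, limma adjusted p = 0.0364). Spcs2 was not called without KO gradient 3 or any 1 WT gradient (limma adjusted p up to 0.197), nor Ssr3 without any 1 gradient except KO gradient 1 (up to 0.234).

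Several families with many calls before adjustment had few after it. Of 78 nuclear-encoded respiratory chain subunits 35 were lowered and 3 raised before adjustment, and 3 and 3 after it, with medians of -0.56 and -0.097. Of 77 mitochondrial ribosomal proteins 27 were lowered before and 2 after, with medians of -0.48 and -0.088. The adjusted median of the mitochondrial ribosomal list was 0.57, 0.58 and 0.48 in WT gradients 1 to 3. In KO gradients 1 to 3 it was 0.41, 0.42 and 0.42, which did not overlap. Medians of other lists with small changes did not overlap either, such as that of RAB GTPases (-0.034). Of the 77 genes 24 had gradients that did not overlap after adjustment, beside 3586 of all 11766. The counts of lowered genes depended on the adjustment. With transcript length in place of coding length 12 mitochondrial ribosomal (median -0.31) and 10 respiratory chain genes (median -0.12) were lowered. Without the filter on low counts 8 (-0.40) and 13 (-0.45) were lowered. Without KO gradient 3 or WT gradient 2, 0 respiratory chain genes were lowered. Within these lists single genes stood apart. Mrpl3, of the large mitochondrial subunit, changed by -1.07 (SE 0.19, limma adjusted p = 0.00182), from 1.59, 1.36 and 1.6 in WT to 0.75, 0.18 and 0.10 in KO. Cox7a2l, which joins respiratory complexes, rose by 1.55 (SE 0.26, limma adjusted p = 0.0016), from -2.19, -2.57 and -1.99 to -1.55, -0.97 and -1.37. Cox8a, a short subunit of cytochrome c oxidase, rose by 1.10 (SE 0.17, limma adjusted p = 0.000556) after adjustment, while its unadjusted change of 0.43 did not pass (limma adjusted p = 0.108). Ndufc2, of complex I, changed by -0.98 (SE 0.22, limma adjusted p = 0.0103), but not past the threshold without KO gradient 3 (0.0961) or WT gradient 2 (0.0678).

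The long mRNAs of chromatin regulators showed the opposite pattern before adjustment. Of 42 histone methylation genes 17 were raised and 0 lowered before adjustment, and 1 and 1 after it, with medians of 0.55 and 0.09. Chromatin remodelling ATPases and partners went from 9 raised of 32 to 1, with medians of 0.42 and 0.0055, and DEAD and DEAH box helicases from 13 of 51 to 2 raised and 1 lowered. Of 43 basement membrane, collagen and integrin genes 16 were raised before and 2 after, with medians of 0.97 and 0.37. Kdm5b, a demethylase of histone H3, rose by 0.84 (SE 0.17, limma adjusted p = 0.00456), and the limma adjusted p was 0.0585 without KO gradient 3.

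For genes that work with DDX6, the counts were near those of all genes (4.03% raised and 2.62% lowered), which in lists this short is 0 or 1 gene. Of 14 decapping and P-body genes 0 were raised and 1 lowered, with a median of -0.12 and Eif4enif1, the eIF4E transporter, at -0.74 (SE 0.22, limma adjusted p = 0.0483). Leaving out any gradient other than KO gradient 1 ended that call, with limma adjusted p from 0.0701 to 0.204. Among 13 Argonaute, TNRC6 and miRNA processing genes, 22 cap-binding proteins and translational repressors, 14 nonsense-mediated decay factors and 14 exosome subunits 0 were called in either direction, with medians of -0.0094, 0.14, 0.086 and -0.087. Genes without a coding length could not be adjusted. Before adjustment 4 lincRNAs were raised and 4 lowered of 194, 1 antisense RNA was raised and 3 lowered of 107, and of 17 small nucleolar RNA host transcripts 0 changed in either direction. In that test 10.7% of all 12705 genes were raised and 7.09% lowered, so calls were rarer among the lincRNAs and antisense RNAs.

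By the size of the adjusted change alone, the 10 largest rises among genes with a mean of at least 10 CPM and gradients that did not overlap were those of Bdkrb2, Zbtb7a, Crispld2, Zfp773, Yod1, Tubb5, Eef1g, Eef1b2, Pdik1l and Tkfc, drawn from 342 such raised genes. Gradients that did not overlap in translation level were found for 4961 of all 12705 genes tested. Pdik1l, a kinase, had 19.5, 18.4 and 19.7 CPM in WT monosomes and 17.7, 26.2 and 16.3 in KO monosomes, which overlapped. Its high polysome level was 5.78, 6 and 6.03 CPM in WT and 19.4, 18.6 and 22.5 in KO, which were well apart, and its adjusted rise was 1.84 (SE 0.29, limma adjusted p = 0.00075). Tkfc, triokinase, rose by the same 1.84 (SE 0.24, limma adjusted p = 0.000106), with both fractions changing. Yod1, a deubiquitinase, rose by 1.98 (SE 0.42, limma adjusted p = 0.00761), from means of 1.88 to 8.04 CPM in the high polysome, and was not called without WT gradient 3 (limma adjusted p = 0.0529). Bdkrb2, the bradykinin B2 receptor, had 0.385 to 1.59 CPM in the WT monosome and high polysome libraries and 9.11 to 46.4 CPM in those of KO, and Crispld2 had 0.6 to 1.86 and 7.49 to 34.2 CPM. Both reached the mean level through KO alone, so their WT translation levels rest on few counts and no change is drawn from them. Zfp773 reached the mean level through the WT monosomes alone, and its high polysome levels were low in both genotypes.

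The 10 largest falls, from 164 lowered genes, were those of Rpa3, Fbxl4, Tmem38b, Abcb1a, Nsmce3, Fam198b, Rfx7, 2610507B11Rik, Mia2 and Amn1. Abcb1a, the P-glycoprotein efflux pump, has a coding length of 3831 nt. It had 44.2, 48.6 and 58.2 CPM in WT monosomes against 22.5, 29.9 and 34.6 in KO, and 67.6, 68.2 and 56.8 CPM in WT high polysomes against 19.7, 13.7 and 13.3 in KO. Both fractions were lower in KO without overlap, the high polysome more so, and the adjusted change was -1.74 (SE 0.29, limma adjusted p = 0.00131). 2610507B11Rik (6705 nt) and Mia2 (4194 nt), a cargo receptor of the endoplasmic reticulum, each changed by -1.5 after adjustment (SE 0.20 and 0.26, limma adjusted p = 0.000141 and 0.00158). Mia2 went from 0.58, 0.81 and 0.47 in WT to 0.41, -0.76 and -0.71 in KO, so KO gradient 1 was just below the WT range. Amn1 (777 nt) changed by -1.49 (SE 0.29, limma adjusted p = 0.00431) and was just outside the threshold without WT gradient 2 (0.0529). Fbxl4 and Tmem38b changed by -2.02 and -1.92 (SE 0.60 and 0.57, limma adjusted p = 0.0457 and 0.0475), and both lost the call without any gradient except KO gradient 1, with adjusted p up to 0.202 and 0.244. With a replicate block Fbxl4 was at -1.91 (limma adjusted p = 0.0568). Fam198b was not called without KO gradient 2 or 3 (limma adjusted p = 0.0616 and 0.0822), nor Rfx7 without KO gradient 3 (0.0585). In Fbxl4 and Tmem38b, KO gradient 3 was the lowest gradient, at -1.18 and -2.67.

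**Figure D4:**
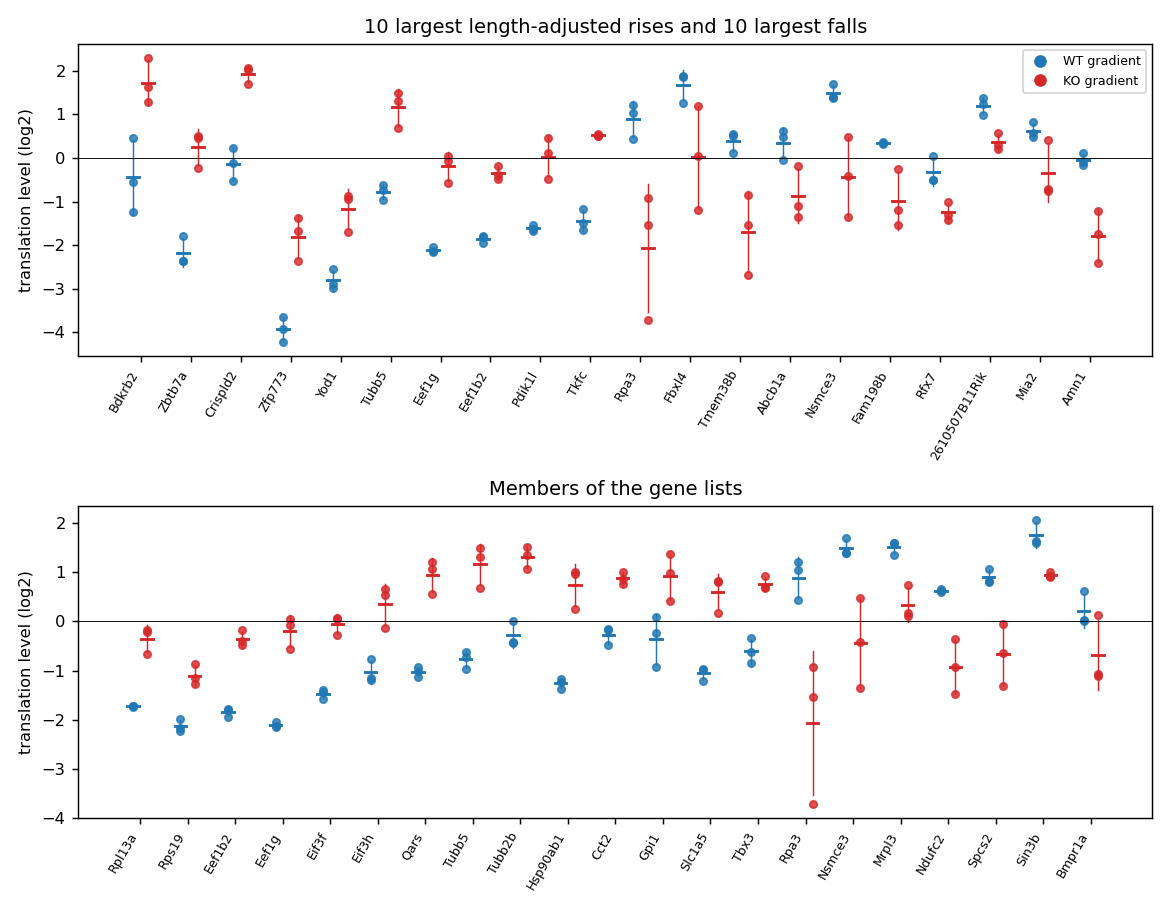
Translation level, log2(high polysome / monosome), of named genes in each WT (blue) and KO (red) gradient, with the mean (horizontal bar) and SD (vertical bar) of 3 gradients. The upper panel holds the 10 largest adjusted rises and falls, where WT and KO do not overlap by the rule for choosing them, and the lower panel members of the gene lists, where Bmpr1a overlaps, and Rpa3, shown in both panels, spreads from -0.92 to -3.71 among KO gradients.

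By length, of 3857 genes with a coding length of at most 1000 nt 150 were raised and 64 lowered. Of 3379 genes of at least 2000 nt 127 were raised and 130 lowered. Over all lengths 474 of 11766 genes (4.03%) were raised and 308 (2.62%) lowered, and no result by length is drawn from the raised counts. Ddx6 itself had translation levels of 0.38, 0.37 and 0.19 in WT and -0.06, -1.42 and -0.41 in KO, an adjusted change of -1.08 that did not pass (SE 0.70, limma adjusted p = 0.359).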

How the data were processed

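Polysome fractions of 3 WT and 3 Ddx6 KO gradients were sequenced from the 3′ end (QuantSeq 3′ FWD). Per the submitters' processing notes, the tools were cutadapt 1.14, STAR 2.5.3a and featureCounts 1.5.3 with the mm10 build. The deposited table holds raw counts per gene in 18 libraries, made by the authors from uniquely aligned reads counted by strand. PCR copies may be among the counts, and depth (2543617 to 11474550) limits weak genes, most in WT monosomes.

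Symbols, coordinates and coding lengths came from Gencode M21 (51274 of 51467 identifiers matched, 193 not), and gene starts from RefSeq. Counts were scaled by TMM (edgeR 4.0.16) and fitted with limma-voom 3.58.1 (R 4.3.3) with a mean for each genotype and fraction, and the change is the interaction contrast, as in the study's linear model. For the length-adjusted test, a local regression (degree 1, span 0.5) of each library's deviation from the gene mean on log2 coding length was subtracted, and the same weights were refitted. The threshold was 0.05 after Benjamini-Hochberg adjustment. Translation levels of single gradients are log2 ratios of CPM with 0.5 CPM added. Within a gradient the fractions come from one lysate, so same-numbered libraries are paired by source. Their deviations correlated at only -0.082 to 0.0812.

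Named genes had a mean of at least 10 CPM, a call in both tests and gradients that did not overlap, ranked by adjusted change (10 each way, and 4 short rises and 4 long falls), plus up to 2 called genes a direction in each list. Members, lists and rules were chosen with earlier results of these data known. Scripts were tested on simulated data. Alternatives included DESeq2 1.42.0, other scalings, filters, lengths and left-out gradients.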

Additional observations from a re-analysis of the deposited data

How the results depend on the processing

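Raised and lowered genes before adjustment numbered 636 and 251 when an absolute log2 change over 1 was also required, and from 466 to 1500 and from 276 to 1116 when a gradient was left out. Lowered genes numbered 1386 with library size alone, 1744 with the monosome and high polysome libraries only and 1360 with the DESeq2 Wald test. After length adjustment, leaving out a gradient gave from 111 to 762 raised and from 41 to 574 lowered genes. The stricter change over 1 gave 197 and 114, counts thinned to the shallowest library 297 and 193, and the longest transcript length in place of coding length 894 and 810. Without the filter on low counts 729 were lowered, and with the monosome and high polysome libraries only 553. The stricter rule can only lower the counts, and the cause of the other shifts was not tested.

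With a replicate block, in which the gradient is a term because its fractions share a lysate, 1552 genes were raised and 1075 lowered before adjustment and 584 and 403 after it, and 748 of the 782 adjusted calls were kept. Among named genes the block ended the calls of Bdkrb2 (2.41, limma adjusted p = 0.0592) and Fbxl4 (-1.91, limma adjusted p = 0.0568). With transcript length 620 of the 782 were kept, and 2 turned in sign.

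Of 112 named genes called after adjustment, 35 kept the call without each gradient and 32 under all alternatives. Zfp773 and Tpt1 lost it when counts were thinned. Of 57 list medians 32 kept their sign under all alternatives, among them those of the ribosomal protein, TOP, tubulin, CCT, glycolysis and RPA lists. The unadjusted change of Tomm7, 0.06, was -0.0693 with library size alone, -0.0649 without the filter, -0.0373 with the monosome and high polysome libraries only, -0.0149 with DESeq2 and from -0.0814 to 0.2 without a gradient. That of Zfp106, -0.04, was from -0.205 to 0.078 without a gradient. Neither passed the threshold in the main test.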
